A study of Rattus norvegicus with 12 samples.

Results

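Protein phosphatases remove phosphate groups from proteins and so reverse the action of kinases. The serine/threonine enzymes PP1, PP2A, calcineurin, PP4 and PP6 work as complexes in which a shared catalytic subunit is directed to its substrates, or held inactive, by interchangeable regulatory subunits. PPM enzymes act as single proteins, and tyrosine phosphatases are either of the non-receptor type (PTPN) or of the receptor type, which spans the membrane (PTPR). In striatal output neurons, dopamine D1 receptors raise cAMP and activate protein kinase A, which phosphorylates the PP1 inhibitors DARPP-32 and inhibitor-1. Calcineurin and PP2A oppose this step.

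The genes described here were taken from the array's annotation by symbol, as those starting with Ppp1 to Ppp6, Ppm1, Ptpn or Ptpr. Ppp1r1b (DARPP-32) and Ptpn5 were left out. This gave 80 of the 9218 named genes, each with 1 probe: 3 catalytic and 24 regulatory genes of PP1, 13 of PP2A, 4 of calcineurin, 8 of PP4, PP5 and PP6, 9 PPM, 10 PTPN and 9 PTPR genes. Ptprcap matches by symbol but encodes a binding partner of the receptor phosphatase CD45 and not a phosphatase.

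RNA from rat striatum was measured on 12 one-colour Illumina arrays on day 8 after the treatment period. In the LID group, 6 samples came from parkinsonian rats that had become dyskinetic under chronic levodopa, given as its methyl ester at 25 mg/kg together with benserazide at 6.25 mg/kg, which blocks decarboxylation outside the brain. In the PD control group, 6 samples came from parkinsonian rats that received no levodopa. Parkinsonism was thus shared by both groups, while the way it was induced, the hemisphere sampled and whether each sample is a separate animal are not stated in the labels. No group had levodopa without dyskinesia, so the drug, benserazide and the movements cannot be told apart, and the p-values reflect only the variation among these 12 samples, which may be technical.

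Levels are log2 normalised intensities, and differences are LID minus PD control on that scale, from limma with Benjamini-Hochberg adjustment over all 13375 probes and a threshold of 0.05. The lowest deposited intensity was 36.5, so no gene was at 0, but a value above 0 can be background and does not show detection. The number of arrays limits precision, and so does signal over background in dim genes. Of the 80 genes, 14 had a mean below the 25th percentile of all probes and could show little change. Markers of striatal projection neurons were bright, with a mean level of 11.29 to 11.63 on the LID arrays and 10.87 to 11.52 on the PD control arrays. The 3 lowest PD control arrays in this respect were replicates 1, 3 and 6, at 10.87, 10.93 and 10.95. Replicates 3 and 6 also had the highest level of cortical excitatory markers, 7.44 and 7.32, and replicate 1 the highest level of choroid plexus and ependymal markers, 8.33. Astrocyte markers (4 of 9 higher, 0 lower) were at 10.40 to 10.74 in LID and 10.12 to 10.47 in PD control, and endothelial markers (2 of 7 higher, 0 lower) at 7.20 to 7.48 in LID and 6.91 to 7.22 in PD control. In bulk tissue, a difference in the number of cells of a type and a difference in RNA per cell cannot be told apart.

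Of the 80 phosphatase genes, 11 were higher in LID, 1 was lower and 68 did not pass the threshold. That is 15.0% of these genes, where 12.0% of all probes passed (6.47% higher and 5.54% lower) and 13.5% of the 9218 named genes at 1 probe each. By family, 33.3% of PP1 catalytic, 12.5% of PP1 regulatory, 7.69% of PP2A, 0% of calcineurin and 37.5% of PP4, PP5 and PP6 genes passed. For PPM, PTPN and PTPR genes the shares were 22.2%, 0% and 22.2%. Families hold few genes and none was tested as a set. The genes that rose were Ppp1r1a, Ptprv, Ptprn, Ppp1r10, Ppp2r2c, Ppm1l, Ppp6r1, Ppp6c, Ppp4r3a, Ppp1cb and Ppm1a, and the gene that fell was Ppp1r16a. Changes were small on the scale used here: the largest was 1.41-fold and none reached 1.5-fold. A constant added to all intensities during background correction lowers fold changes, most of all in genes of low intensity. These sizes, including those of Ppp1r1a and Ptprv, can therefore understate the change in RNA. The median difference was 0.02 over the 80 genes and -0.0036 over all probes, and the median absolute difference was 0.077 against 0.075. All 6 LID arrays lay above all 6 PD control arrays for 5 genes (3.34% of all probes) and below them for 1 gene (2.77% of all probes).

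The number of higher genes was 7 in each fit that left out LID replicate 3, 4 or 5 or PD control replicate 1 or 2. The number of lower genes was 2 without LID replicate 4, PD control replicate 1 or PD control replicate 3. Without PD control replicates 1, 3 and 6 together, 9 genes were higher and 3 lower, where 7.92% of all probes passed, and 8 of the 12 genes called on all arrays were among them. These 3 arrays were singled out by marker levels on these same arrays. Adjusted p-values without them therefore describe that fit and are not independent support.

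**Figure D1:**
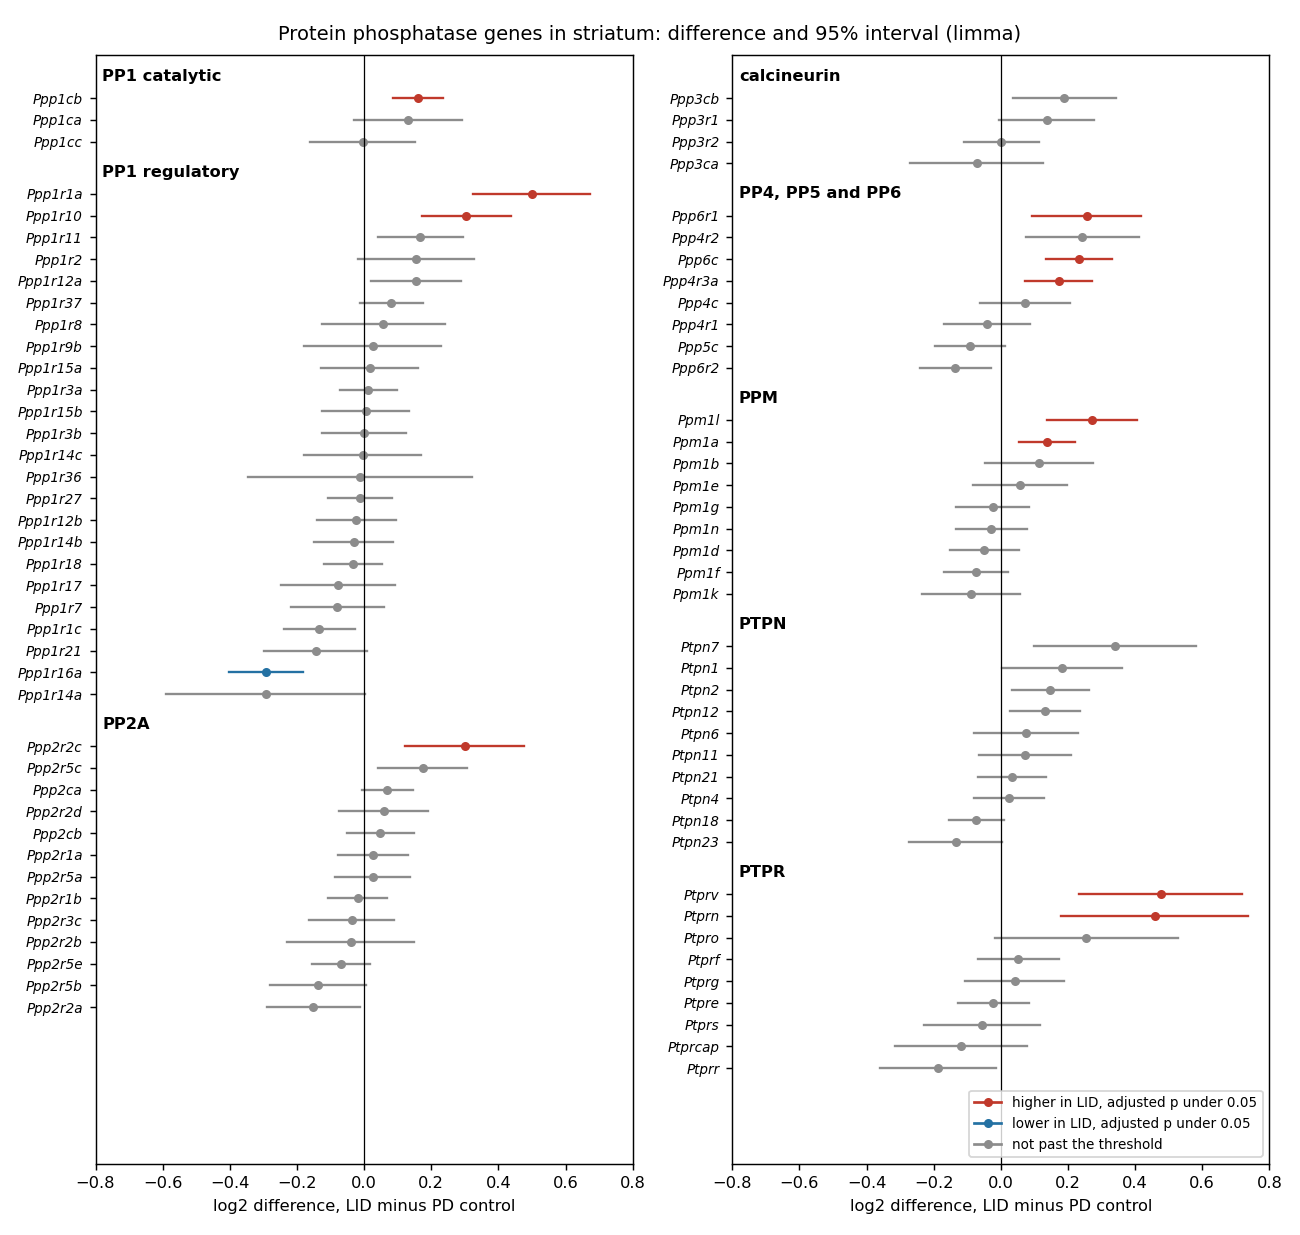
Log2 difference (LID minus PD control, horizontal axis) with its 95% interval for each of the 80 phosphatase genes, grouped by family, 6 arrays per group. The 11 genes in red were higher and Ppp1r16a, in blue, was lower; the grey genes did not pass the threshold, and all differences lie between -0.29 and 0.50.

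Among the catalytic subunits of the serine/threonine enzymes, 2 of 10 rose, Ppp1cb and Ppp6c, and none fell, beside 12.0% of all probes called. Ppp1cb encodes the beta form of the PP1 catalytic subunit, the form found in myosin phosphatase. Its lowest, median and highest levels were 11.57, 11.62 and 11.65 on the LID arrays, against 11.39, 11.46 and 11.51 on the PD control arrays. The groups did not overlap, and the difference, although only 0.16 ± 0.03 (SE, n = 6 per group), passed (adjusted p = 0.0085) and did so in all 12 fits that left out 1 array. The other PP1 catalytic genes, Ppp1ca (0.13, 95% interval -0.03 to 0.29) and Ppp1cc (-0.0037, interval -0.16 to 0.15), did not pass.

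Ppp6c, the catalytic subunit of PP6, had levels of 9.86, 9.96 and 10.08 (lowest, median and highest) in LID and 9.61, 9.73 and 9.82 in PD control. Each LID array was above each PD control array, with a difference of 0.23 ± 0.05 (adjusted p = 0.0055) that passed in every fit without 1 array. Among the other catalytic genes that did not pass, the PP2A genes Ppp2ca and Ppp2cb differed by 0.07 (interval -0.0063 to 0.15) and 0.05 (-0.05 to 0.15). Ppp4c differed by 0.07 (-0.06 to 0.21) and Ppp5c by -0.09 (-0.20 to 0.01).

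These start regions are shown because Ppp1cb, Ppp6c and Ptprn were the called genes whose window held the core letters TGACG of the cAMP response element, the site bound by CREB. Each runs from 250 bases before to 50 after the annotated start, 5′ to 3′ on the gene's strand, from RefSeq in build GRCr8. Capitals mark TGACG or its reverse complement CGTCA.
Ppp1cb (chr6:29712786-29713085, minus strand): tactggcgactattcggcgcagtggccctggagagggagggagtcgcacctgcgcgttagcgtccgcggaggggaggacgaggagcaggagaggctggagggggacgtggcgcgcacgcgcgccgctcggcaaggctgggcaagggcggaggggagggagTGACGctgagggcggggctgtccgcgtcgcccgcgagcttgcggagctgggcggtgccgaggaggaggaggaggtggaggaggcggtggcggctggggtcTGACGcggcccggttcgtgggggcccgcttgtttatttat
Ppp6c (chr3:43371758-43372057, minus strand): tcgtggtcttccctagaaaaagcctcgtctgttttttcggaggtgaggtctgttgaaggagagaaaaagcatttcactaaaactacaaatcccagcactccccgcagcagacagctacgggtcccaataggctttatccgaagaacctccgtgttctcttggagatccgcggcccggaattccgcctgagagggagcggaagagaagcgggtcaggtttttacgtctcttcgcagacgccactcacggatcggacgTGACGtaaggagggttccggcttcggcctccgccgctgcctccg
Ptprn (chr9:84204774-84205073, minus strand): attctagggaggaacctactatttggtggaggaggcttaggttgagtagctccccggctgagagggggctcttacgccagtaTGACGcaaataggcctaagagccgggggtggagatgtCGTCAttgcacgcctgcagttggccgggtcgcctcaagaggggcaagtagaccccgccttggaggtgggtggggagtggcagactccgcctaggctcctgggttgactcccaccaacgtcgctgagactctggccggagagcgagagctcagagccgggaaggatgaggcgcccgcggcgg
Windows were matched by gene ID for 68 of the 80 genes and 10 of the 12 called genes. TGACG, on either strand, stood in 3 of these 10 windows, in 22 of the 68 (32.4%) and in 21.2% of the 33469 windows of all genes. The full palindrome TGACGTCA, which contains that core, stood in none of the 10, in 4 of the 68 (5.88%; Ppp1r15a, Ppp2ca, Ppp2r2d and Ptprs) and in 1.83% of all windows. For the phosphatase genes, any further windows of the same gene were dropped. The windows of all genes were neither reduced in this way nor limited to genes on the array. These shares therefore compare unlike sets, and enrichment was not tested. A match is a run of letters and not a measured site, and the 3 genes moved by 0.16 (Ppp1cb), 0.23 (Ppp6c) and 0.46 (Ptprn).

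PP1 is held inactive by a set of small inhibitor proteins. Of the 8 measured genes of this kind 1 rose, beside 12.0% of all probes called. Ppp1r1a encodes inhibitor-1, the relative of DARPP-32 that blocks PP1 once protein kinase A has phosphorylated it. It had levels of 7.21, 7.41 and 7.65 (lowest, median and highest) on the LID arrays and 6.68, 6.99 and 7.07 on the PD control arrays. The lowest LID array, replicate 2, was above every PD control array. The difference of 0.50 ± 0.08 (1.41-fold, adjusted p = 0.0019) was the largest of the 80 genes and stayed between 0.45 and 0.54 when single arrays were left out. It was 0.53 without PD control replicates 1, 3 and 6.

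For the other inhibitor genes the test was not passed. Ppp1r1c, a close relative of Ppp1r1a, differed by -0.13 (adjusted p = 0.099) from dim levels of at most 6.12 in LID and 6.30 in PD control. Ppp1r2 (inhibitor-2) differed by 0.15 (interval -0.02 to 0.33) and Ppp1r11 (inhibitor-3) by 0.17 (adjusted p = 0.084). Ppp1r14b and Ppp1r14c, of the family that inhibits myosin phosphatase, differed by -0.03 and -0.0043, and Ppp1r17, at the dim end of the array, by -0.08.

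Ppp1r14a encodes CPI-17, another inhibitor of myosin phosphatase, which in mouse brain is found in oligodendrocytes. Levels were 10.52, 10.71 and 10.93 (lowest, median and highest) in LID and 10.36, 11.13 and 11.29 in PD control. Of the PD control arrays, 5 were at 11.01 or above, over all LID arrays, while replicate 3 was the lowest of the 12. The difference was -0.29 ± 0.14 and did not pass (adjusted p = 0.20). It was -0.43 without PD control replicate 3 (adjusted p = 0.0066) and -0.46 without replicates 1, 3 and 6 (adjusted p = 0.020). Replicate 3 was singled out in these same values, so both adjusted p-values only describe those fits. The mean level of 11 oligodendrocyte markers, of which 2 fell (Opalin, -0.75, and Cnp, -0.45) and none rose, was 10.14 to 10.63 in LID and 10.13 to 10.79 in PD control. It was lowest in the same PD control replicate 3 and at 10.68 or above on the other 5 PD control arrays. The part of these cells in the difference of Ppp1r14a was not tested.

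The other 16 PP1 regulators direct the enzyme to a place or substrate, and 1 rose and 1 fell, beside 12.0% of all probes called. Ppp1r10 (PNUTS) carries PP1 to chromatin. It had levels of 8.20, 8.43 and 8.53 (lowest, median and highest) in LID and 7.97, 8.05 and 8.23 in PD control, with LID replicate 2 just below the highest PD control array, replicate 4. The difference of 0.30 ± 0.06 (1.24-fold, adjusted p = 0.0066) passed in all 12 fits without 1 array.

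Ppp1r16a (MYPT3) tethers PP1 to membranes and was the only one of the 80 genes to fall. Its levels were 7.97, 8.06 and 8.12 (lowest, median and highest) in LID and 8.22, 8.34 and 8.55 in PD control. No LID array reached the lowest PD control array. It fell by 0.29 on the log2 scale (SE 0.05, adjusted p = 0.0030, 1.23-fold higher in PD control) and by 0.25 to 0.32 when single arrays were left out. Spinophilin, encoded by Ppp1r9b, holds PP1 in dendritic spines. It differed by 0.03 (interval -0.18 to 0.23), with LID replicate 6 at 8.68 and the other LID arrays at 8.05 to 8.25. The nuclear regulator Ppp1r8 (NIPP1) differed by 0.06, the myosin phosphatase subunit Ppp1r12a by 0.15 (adjusted p = 0.14) and the stress-induced Ppp1r15a (GADD34), which directs PP1 to the translation factor eIF2, by 0.02 (interval -0.13 to 0.16). The other 10 genes of this kind lay between -0.14 and 0.08 and did not pass.

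**Figure D2:**
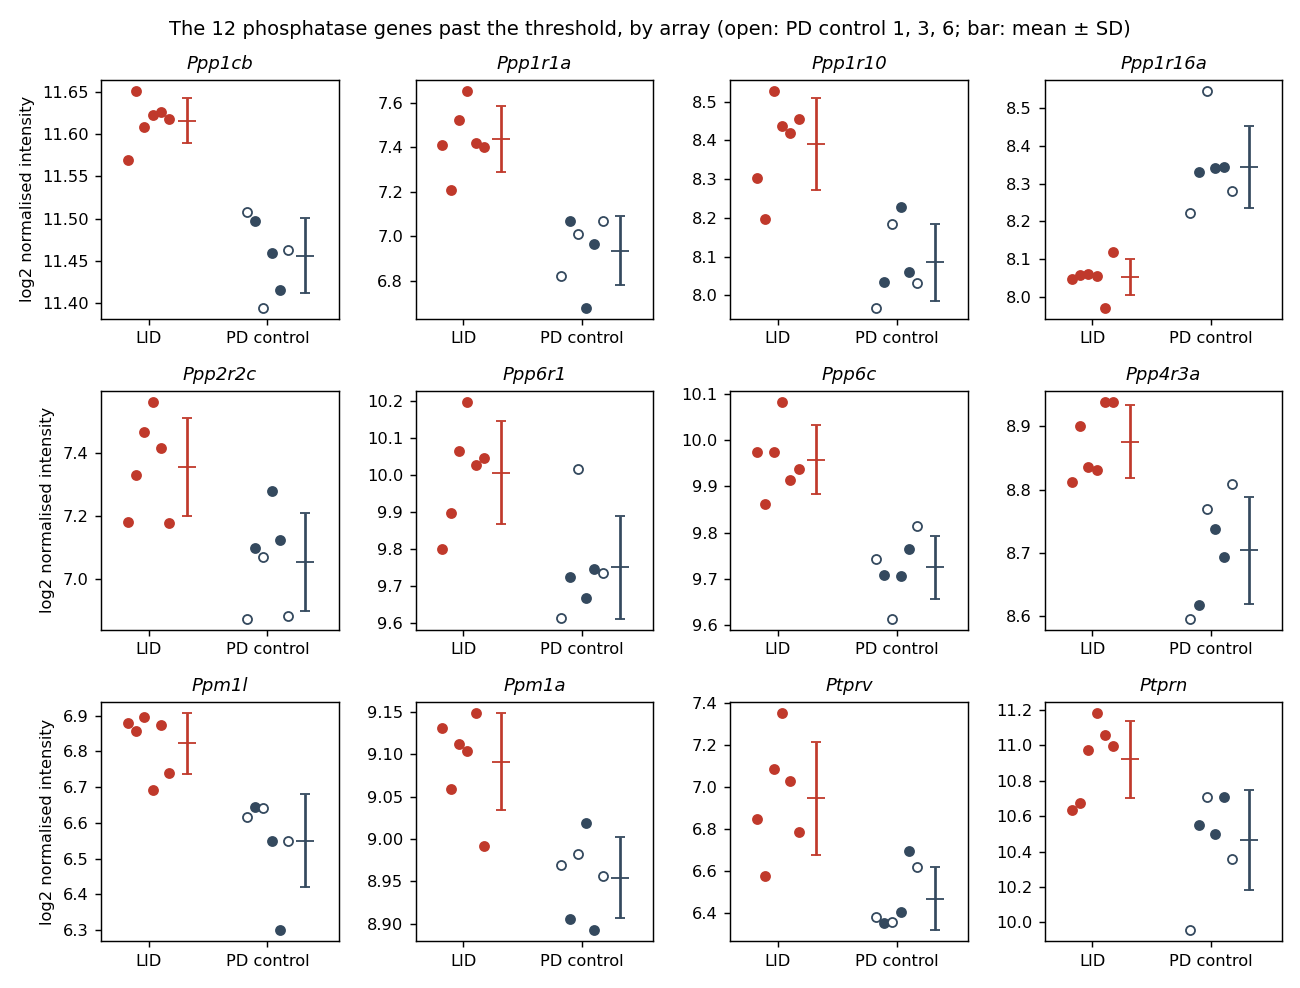
Log2 normalised intensity on each array for the 12 genes past the threshold, LID left and PD control right, with the mean and SD beside the points; open circles are PD control replicates 1, 3 and 6. The groups do not overlap for Ppp1cb, Ppp1r1a, Ppp1r16a, Ppp6c, Ppp4r3a and Ppm1l.

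PP2A pairs a catalytic and a scaffold subunit with a B subunit that sets its substrate. Of its 13 genes 1 rose, beside 12.0% of all probes called. Ppp2r2c encodes a B subunit enriched in brain. Its levels were 7.18, 7.37 and 7.56 (lowest, median and highest) in LID and 6.87, 7.08 and 7.28 in PD control, and the groups overlapped through LID replicates 1 and 6 and PD control replicate 4. The difference was 0.30 ± 0.08 (adjusted p = 0.032). The call was lost without LID replicate 3, 4 or 5 and without PD control replicate 1 or 6, and the difference was 0.19 (adjusted p = 0.24) without PD control replicates 1, 3 and 6. Of these, replicates 1 and 6 had the lowest levels of Ppp2r2c.

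The remaining PP2A genes lay between -0.15 and 0.17 and did not pass. The B subunit gene Ppp2r2a differed by -0.15 (interval -0.29 to -0.01, adjusted p = 0.16), and by -0.27 (adjusted p = 0.020) without the 3 PD control arrays. Those arrays held its lowest PD control levels (10.78, 10.96 and 10.83), so leaving them out could only enlarge the difference. Ppp2r2b differed by -0.04 (interval -0.23 to 0.15). The probes of the scaffold genes Ppp2r1a and Ppp2r1b were dim, with means of 6.18 and 5.96 in LID and 6.16 and 5.98 in PD control. They could show little change, and a dim probe does not show that the transcript was scarce. Of the B56 subunits, Ppp2r5c differed by 0.17 (adjusted p = 0.085) and Ppp2r5b by -0.14 (adjusted p = 0.21), while Ppp2r5e (-0.07) and Ppp2r5a (0.03) were nearer to 0.

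No gene of calcineurin, the phosphatase switched on by calcium and calmodulin, passed the threshold. Its catalytic genes were Ppp3ca, with a difference of -0.07 (interval -0.27 to 0.12), and Ppp3cb, with 0.19 (interval 0.03 to 0.34, adjusted p = 0.11). Ppp3cb had levels of 10.59, 10.77 and 10.92 (lowest, median and highest) in LID and 10.31, 10.59 and 10.72 in PD control, and the groups overlapped. The regulatory gene Ppp3r1 differed by 0.14 (interval -0.0042 to 0.28), and Ppp3r2 was dim at 5.87 in both groups. By the unadjusted p of limma, 1 of the 4 genes was under 0.05, as were 25.7% of all probes.

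PP4 and PP6 are relatives of PP2A with regulatory subunits of their own. In the PP4, PP5 and PP6 group 3 of the 8 genes rose, beside 12.0% of all probes called. Ppp6r1 encodes a subunit that anchors PP6, whose catalytic gene Ppp6c also rose. Its levels were 9.80, 10.04 and 10.20 (lowest, median and highest) in LID and 9.61, 9.73 and 10.02 in PD control, where replicate 3 stood apart from 9.75 or less on the other arrays. The difference of 0.26 ± 0.08 was close to the threshold (adjusted p = 0.043). With 1 array left out it passed only without LID replicate 1, LID replicate 2 or PD control replicate 3, and it did not pass with a background offset of 1 (adjusted p = 0.074).

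Ppp4r3a (SMEK1), a subunit that brings substrates to PP4, had levels of 8.81, 8.87 and 8.94 (lowest, median and highest) in LID and 8.60, 8.72 and 8.81 in PD control. The lowest LID array was barely above the highest PD control array, and the difference was 0.17 ± 0.05 (adjusted p = 0.028). The call was lost without LID replicate 2, 5 or 6, without PD control replicate 1 or 2, and with a background offset of 1 (adjusted p = 0.060). Ppp4r2, the other core PP4 subunit measured, differed by 0.24 ± 0.08 (adjusted p = 0.062), and by 0.40 without PD control replicates 1, 3 and 6 (adjusted p = 0.0055). Those replicates held the highest PD control levels of Ppp4r2 (9.59, 9.66 and 9.76), so leaving them out could only enlarge the difference. Ppp6r2 differed by -0.14 (adjusted p = 0.092), opposite in sign to Ppp6r1, and Ppp4r1 by -0.04.

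PPM enzymes are metal-dependent phosphatases without regulatory subunits, and 2 of 9 rose, beside 12.0% of all probes called. Ppm1l acts on stress-activated kinase pathways. It had levels of 6.69, 6.86 and 6.90 (lowest, median and highest) in LID and 6.30, 6.58 and 6.65 in PD control. The groups did not overlap, and the difference of 0.27 ± 0.06 (1.21-fold, adjusted p = 0.012) passed in all 12 fits without 1 array. Ppm1a, which dephosphorylates SMAD proteins and stress kinases, had levels of 8.99, 9.11 and 9.15 in LID and 8.89, 8.96 and 9.02 in PD control. LID replicate 6 lay below the highest PD control array, and the difference of 0.14 ± 0.04 (adjusted p = 0.037) passed in only 4 of 12 fits, those without LID replicate 2, LID replicate 6, PD control replicate 3 or PD control replicate 4. The Ppm1a call was also lost without PD control replicates 1, 3 and 6 (0.15, adjusted p = 0.0999), with a background offset of 1 (adjusted p = 0.086) and with a variance trend and robust fit (adjusted p = 0.061). Among the genes that did not pass were Ppm1b (0.11, interval -0.05 to 0.27), the p53-induced Ppm1d (-0.05) and Ppm1e (0.06), which was dim. Ppm1k, which regulates branched-chain amino acid breakdown in mitochondria, had the lowest difference, -0.09.

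**Figure D3:**
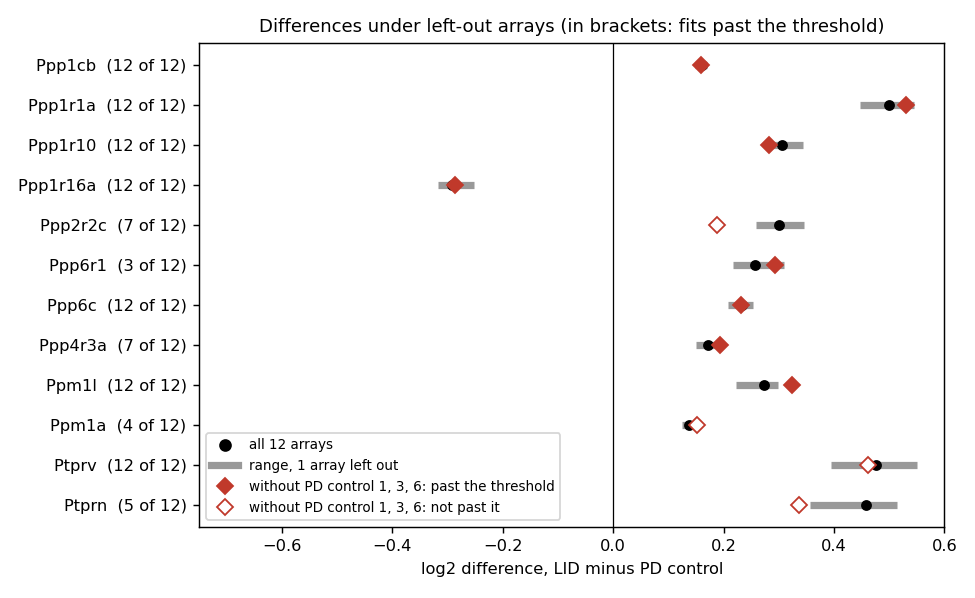
Log2 difference (LID minus PD control) of the 12 called genes with all arrays (black), its range over the 12 fits that left out 1 array (grey bar) and its value without PD control replicates 1, 3 and 6 (diamond, filled where past the threshold). Ppp1cb, Ppp1r1a, Ppp1r10, Ppp1r16a, Ppp6c, Ppm1l and Ptprv passed in 12 of 12 fits, and Ppp6r1 in 3 of 12.

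Of the 9 PTPR genes, which are 8 receptor-type phosphatase genes and Ptprcap, 2 rose, beside 12.0% of all probes called. Ptprn encodes IA-2, a protein of dense-core secretory vesicles that has lost phosphatase activity. Its levels were 10.64, 10.98 and 11.18 (lowest, median and highest) in LID and 9.96, 10.52 and 10.71 in PD control. LID replicates 1 and 2 lay within the PD control range, and PD control replicate 1 was the lowest of the 12, with the next PD control array at 10.36. The difference was 0.46 ± 0.13 (1.37-fold, adjusted p = 0.036). It was lost without LID replicate 3, 4, 5 or 6 and without PD control replicate 2, 4 or 6, and was 0.34 (adjusted p = 0.11) without PD control replicates 1, 3 and 6. With a background offset of 1 its adjusted p was 0.057.

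PD control replicate 1 also had the lowest mean level of 14 projection-neuron markers (10.87), and the LID replicates 1 and 2, lowest in Ptprn, were the lowest of their group in these markers (11.31 and 11.29). Of these markers, 4 rose (Tac1, 1.25, Drd1, 0.57, Adcy5, 0.47, and Foxp1, 0.44) and none fell. The other 10 did not pass and lay between -0.02 (Rgs9) and 0.40 (Gnal). The mean level thus includes markers that differed between the groups to unequal degrees. PD control replicate 3, with a marker level of 10.93, had as high a level of Ptprn (10.71) as any PD control array. The part of these neurons in the difference of Ptprn was not tested.

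**Figure D4:**
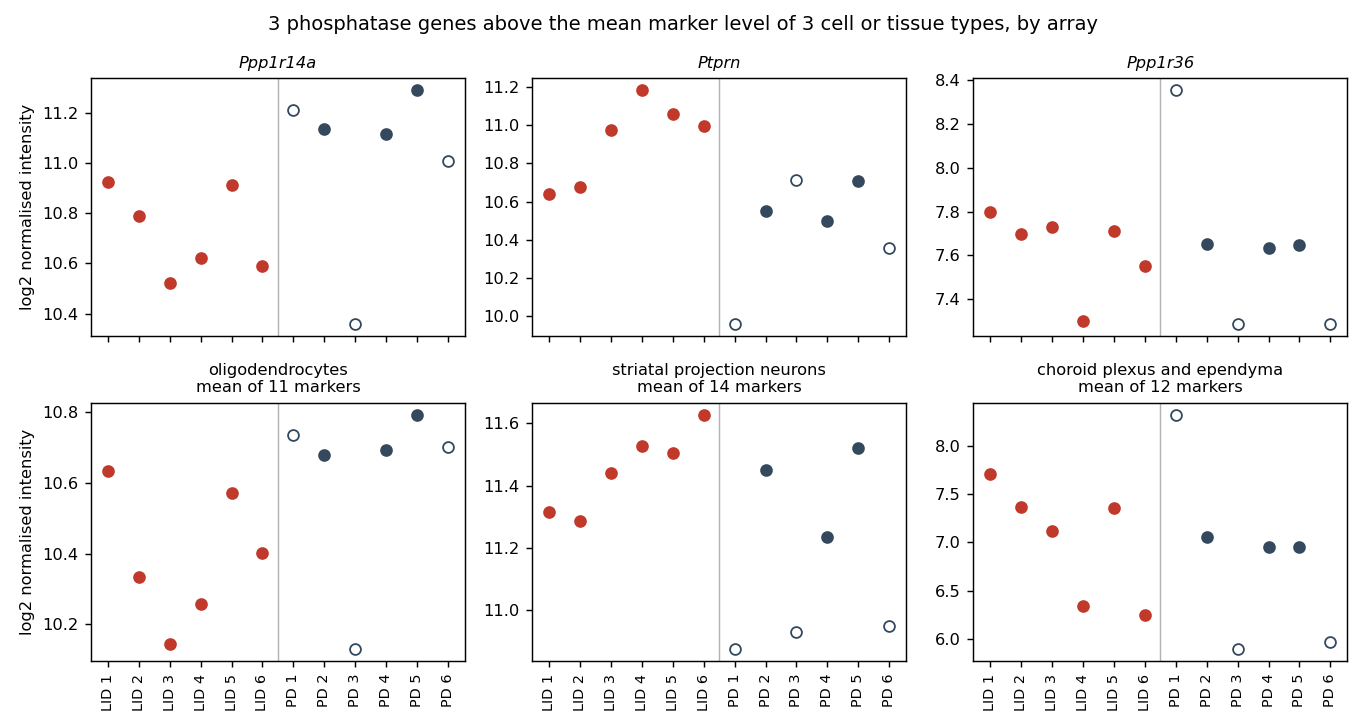
Log2 normalised intensity on each array of Ppp1r14a, Ptprn and Ppp1r36 (top) and the mean level of the oligodendrocyte, projection-neuron and choroid plexus and ependymal markers (bottom); red is LID, dark is PD control, and open circles are PD control replicates 1, 3 and 6. PD control replicate 3 is lowest in both Ppp1r14a and the oligodendrocyte markers, and PD control replicate 1 is lowest in Ptprn and in the projection-neuron markers and highest in Ppp1r36 and in the choroid plexus and ependymal markers.

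Ptprv encodes a receptor-type phosphatase known from rat bone and testis. It had levels of 6.58, 6.94 and 7.35 (lowest, median and highest) in LID and 6.35, 6.40 and 6.70 in PD control. LID replicate 2 lay below the highest PD control arrays, replicates 5 and 6. The difference of 0.48 ± 0.11 (1.39-fold, adjusted p = 0.015) passed in all 12 fits without 1 array, and was 0.46 (adjusted p = 0.082) without PD control replicates 1, 3 and 6.

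Ptpn7, a soluble tyrosine phosphatase of blood cells that acts on MAP kinases, had the largest difference of the 10 PTPN genes but did not pass (0.34 ± 0.11, adjusted p = 0.067). Its levels were 6.75, 7.03 and 7.51 (lowest, median and highest) in LID and 6.61, 6.67 and 6.97 in PD control. It passed without LID replicate 2 or PD control replicate 5. On the genome Ptpn7 and Ptprv lie next to each other on chromosome 13 and are transcribed away from each other. They were the only pair of the 80 genes that are neighbours among protein-coding genes in RefSeq. Both were highest in LID replicate 4 and lowest of LID in replicate 2, and in PD control both were highest in replicate 5, then 6.

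The start regions of both genes are given because of this arrangement, from RefSeq in build GRCr8, 5′ to 3′ on each gene's strand, with the 50 bases from the annotated start in capitals.
Ptprv (chr13:49120072-49120371, minus strand): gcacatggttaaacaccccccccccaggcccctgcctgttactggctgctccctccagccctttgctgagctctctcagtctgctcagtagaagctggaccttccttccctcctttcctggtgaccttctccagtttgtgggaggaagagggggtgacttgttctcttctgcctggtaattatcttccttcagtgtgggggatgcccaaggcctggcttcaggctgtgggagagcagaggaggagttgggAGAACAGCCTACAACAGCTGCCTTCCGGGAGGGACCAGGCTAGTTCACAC
Ptpn7 (chr13:49123308-49123607, plus strand): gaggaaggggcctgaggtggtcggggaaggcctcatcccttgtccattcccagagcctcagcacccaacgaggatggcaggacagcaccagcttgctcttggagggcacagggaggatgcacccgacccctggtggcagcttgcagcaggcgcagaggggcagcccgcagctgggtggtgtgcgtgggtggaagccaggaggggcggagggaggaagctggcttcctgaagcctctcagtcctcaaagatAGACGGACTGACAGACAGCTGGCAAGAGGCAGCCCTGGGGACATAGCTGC
Once the group means were taken off, their deviations correlated at a Pearson r of 0.96 over the 12 arrays (Spearman rho 0.90). Without the 2 arrays whose Ptprv deviation lay farthest from its median, r was 0.92. The r of 0.96 was the highest of all 3160 pairs of the 80 genes, the next being 0.87 for Ppp1r8 and Ptprn. The pair was noticed in these values, so no p is given. Of the genes near the pair, Gpr37l1 (0.11, adjusted p = 0.31), Ube2t (0.06, adjusted p = 0.61) and Ppp1r12b (-0.02, adjusted p = 0.85) were measured and did not pass. Ube2t (means of 6.00 in LID and 5.94 in PD control) and Ppp1r12b (5.87 and 5.89) were dim and could show little change.

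**Figure D5:**
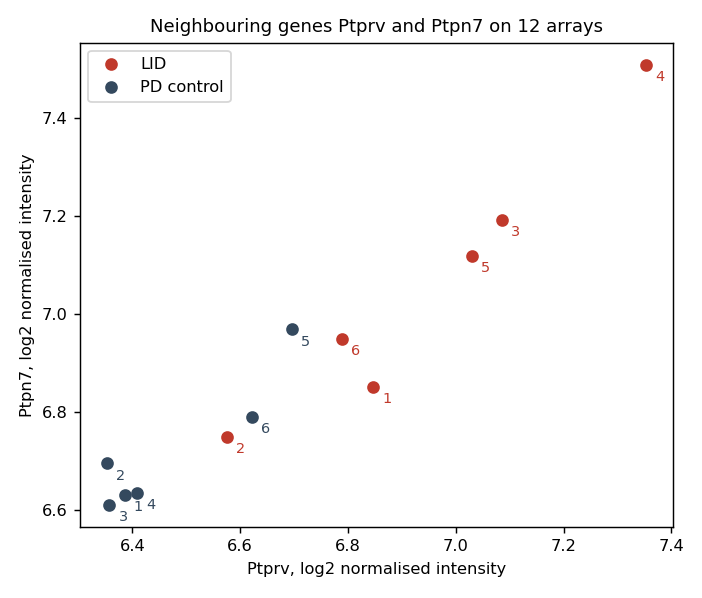
Log2 normalised intensity of Ptprv (horizontal axis) and Ptpn7 (vertical axis) on the 12 arrays, numbered by replicate; red is LID and dark is PD control. Arrays high in Ptprv were high in Ptpn7 in both groups, over a range from 6.35 to 7.35 in Ptprv and from 6.61 to 7.51 in Ptpn7.

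The other tyrosine phosphatases did not pass. None of the 10 PTPN genes was called, and 4 had an unadjusted p under 0.05 in limma, as did 25.7% of all probes. They include Ptpn1 (PTP1B), which acts on insulin and leptin receptors (0.18, interval 0.0024 to 0.36, adjusted p = 0.19), and its relative Ptpn2 (0.15, adjusted p = 0.094, and 0.23 with adjusted p = 0.030 without the 3 PD control arrays). The arrays left out held the highest PD control levels of Ptpn2 (7.70, 7.64 and 7.79), so the larger difference follows from leaving them out. Ptpn11 (SHP2), a positive regulator of growth factor signals, differed by 0.07 (interval -0.07 to 0.21). Ptpn6 (SHP1), which is typical of blood and microglial cells, differed by 0.08 (interval -0.08 to 0.23). The lowest PTPN difference was that of Ptpn23, an endosomal protein, at -0.13 (adjusted p = 0.21). The mean level of 10 microglial and leukocyte markers, of which 1 fell (Aif1, -0.41) and none rose, was 7.85 to 8.17 in LID and 7.80 to 8.24 in PD control. Among receptor types, Ptpro, found in neuronal membranes, differed by 0.25 (interval -0.02 to 0.53), and Ptprr, which binds MAP kinases, by -0.19 (adjusted p = 0.16). The synaptic adhesion genes Ptprs and Ptprf differed by -0.06 (interval -0.23 to 0.12) and 0.05 (-0.07 to 0.17), and Ptpre by -0.02.

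The genes left out of the families are given for comparison. Ptpn5, the striatum-enriched tyrosine phosphatase, rose by 0.50 ± 0.10 (adjusted p = 0.0055). Ppp1r1b had a pair of probes, and neither passed (0.27, interval 0.07 to 0.47, adjusted p = 0.077, and 0.07, interval -0.16 to 0.31, adjusted p = 0.73).

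Related genes were compared in 3 lists, which share 1 gene, Ptprcap, with the 80. Of 33 partners and inhibitors measured, 4 rose, 2 fell and 27 did not pass (median difference 0.04, against -0.0036 over all probes, of which 12.0% were called). Fkbp5, a cochaperone of steroid receptors, rose by 0.79 ± 0.07. Strn (striatin), a B-type subunit of PP2A, averaged 8.46 ± 0.29 in LID and 7.80 ± 0.30 in PD control (SD, n = 6 each) and rose by 0.66 ± 0.15 (adjusted p = 0.011). Its relative Strn4 averaged 8.01 ± 0.09 in LID and 8.29 ± 0.18 in PD control and fell by 0.28 (adjusted p = 0.031). Rcan2, a regulator of calcineurin, averaged 12.00 ± 0.13 in LID and 11.57 ± 0.10 in PD control, with no overlap, and rose by 0.43 ± 0.07 (adjusted p = 0.0014).

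Of 35 other phosphatases, 5 were higher, 0 were lower and 30 missed the threshold (median difference 0.01), beside 12.0% of all probes called. Pdp1, a mitochondrial PPM-type enzyme that reactivates pyruvate dehydrogenase, averaged 11.19 ± 0.25 in LID and 10.12 ± 0.24 in PD control. Its rise of 1.07 ± 0.13 (adjusted p = 0.00027), without overlap, was greater than that of any of the 80 genes. Cdkn3, a phosphatase of cyclin-dependent kinases, rose by 0.45 ± 0.12. The other called genes were Mtmr7 (0.28 ± 0.05), Mtmr6 (0.27 ± 0.05) and Mtmr4 (0.26 ± 0.05), all of the myotubularin family. The list was not limited to phosphatases that act on proteins. Of 28 ligands and partners of receptor phosphatases, Ptprcap among them, 1 rose, 3 fell and 24 did not pass (median -0.03). The share of all probes called was again 12.0%. Cntn4, a contactin that binds PTPRG, rose by 0.47 ± 0.09. Cntn2, an axonal and oligodendrocyte contactin, fell by 0.52 (adjusted p = 0.00029), and Lrfn5, a synaptic adhesion gene, fell by 0.44.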

How the data were processed

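Striatal RNA was hybridised to 1-colour Illumina arrays after biotin labelling, per the labels. The authors deposited linear-scale intensities, and the quartiles of the 12 arrays coincide, as quantile normalization gives. The authors' software, background correction and probe filter are not stated in the labels.

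The intensities were corrected with normexp (offset 50), quantile normalised and taken as log2 in limma 3.58.1 (R 4.3.3). Every probe was then fitted (lmFit, eBayes) on group alone, with two-sided tests. Because of the offset, fold changes understate those of dim genes. GEO's platform annotation named 9434 of the 13375 probes. All 80 members matched a gene ID in RefSeq GRCr8 and no symbol changed.

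Members, lists and alternatives were chosen with earlier results of these data known. Named were called members, the largest rise and fall of each family, 48 listed members (38 measured) and up to 3 called genes per list. Ppp4r2, Ppp4r1, Ppp3r2, Ppp1r36, Ppp1r1c, Ppp1r11, Ppp1r14b, Ppp1r17, Ppp2r2d, Ppp2r5a, Ppp2r5b, Ppp2r5c and Ppp2r5e were named outside this rule, after their values were seen. So were Ppm1f, Ptprcap, Strn4, Mtmr6, Mtmr4, Gpr37l1, Ube2t, Ppp1r12b and the markers.

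The fit was tested on simulated data with 200 changed probes. It recovered 63.6% of log2 differences of 0.3 and 90% of those of 0.6. A gene that did not pass can therefore still differ. Alternatives were other background corrections and normalizations, filters on dim probes, 1 probe per gene, a replicate block, array weights, another variance model and arrays left out.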

Additional observations from a re-analysis of the deposited data

Results flagged for a closer look

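Within the 6 arrays of a group, a sample far from the others was looked for in each of the 80 genes by its gap to the nearest array, relative to the range. Of 160 groups tested 8 stood out, and chance gives about 1 in 20. Ppp1r14a was low in PD control replicate 3 (10.36, nearest 11.01), where Ppm1f was also low (6.15, nearest 6.30) and Ppp6r1 high (10.02, nearest 9.75). Ppp1r36 was high in PD control replicate 1 (8.35, nearest 7.65), the array with the highest choroid plexus and ependymal markers. Ppm1l was low (6.30, nearest 6.55) and Ppp1r12a high (6.83, nearest 6.69) in PD control replicate 5. LID replicate 6 was high in Ppp1r9b (8.68, nearest 8.25) and Ppp4r2 (9.90, nearest 9.76).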

How the results depend on the processing

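With normexp offset 1, 7 genes were higher, the calls of Ppp6r1, Ppp4r3a, Ppm1a and Ptprn being lost. Leaving out 1 array gave 7 to 12 higher and 1 to 2 lower genes and 1112 to 1557 probes past the threshold, against 1606 with all arrays. Without PD control replicates 1, 3 and 6, 1059 probes were called and 3 members were lower (9 higher). Log2 of the deposited intensities, no quantile normalization, median centring, dim-probe filters, 1 probe per gene, array weights and the variance model left 10 to 12 higher and 1 lower. The replicate block gave 10 higher and 1 lower gene and 1332 probes (Ppm1a and Ppp4r3a lost, Ppp2r5c gained). The labels number the PD control arrays 1 to 6 and the LID arrays 7 to 12, so label order runs with group. The shared replicate numbers follow that order and are not a pairing given by the labels. Same-numbered deviations correlated at -0.29 to 0.48, and 3 of 12 arrays correlated best with their own number. Ppp1cb, Ppp1r1a, Ppp1r10, Ppp1r16a and Ppp6c passed in all 23 alternatives and Ppm1l in all 22 that kept its probe. Over all members and alternatives, 45 calls were lost, 18 gained and 73 uncalled differences changed sign. Slide and scan date were not used here. The cause of the lost calls was not tested. Some of these fits had fewer arrays, while those with offset 1, the replicate block and the variance model lost calls with all 12. Signal over background limits the 14 dim genes.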
